A study of Arabidopsis thaliana with 16 samples.

Results

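The regions described here are the peaks called by chromatin immunoprecipitation sequencing (ChIP-seq) with an EIN2 antibody in Arabidopsis thaliana seedlings of the wild type Col-0 that carried the fusion EIN2C-EIN3DB. Members were all peaks of 2 deposited lists, 841 from the library titled air and 1510 from the library titled ethylene, 2351 of the 3378 peaks in the 6 lists of the series. A peak that overlapped a peak of the other list by at least 1 bp was called shared, and any other peak belonged to 1 treatment only. Whole seedlings were 3 days old and dark-grown at 24 °C, and had 4 h of air or of 10 ppm ethylene. Each treatment had 1 ChIP library and 1 input library without antibody, so no difference between the lists could be set against a spread between replicates, and none was tested. A Col-0 library without the fusion was not analysed here. The other 4 peak lists came from the same fusion in ein3-1 eil1-1, a mutant that lacks the function of both EIN3 and its homologue EIL1, with 2 ChIP libraries in air and 2 in ethylene. RNA tables set 3 lines in ein3-1 eil1-1, all in air, against Col; the lines carried EIN2C-EIN3DB, EIN2C-EIN3DBK245N or EIN2S645A.

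Ethylene is perceived at the endoplasmic reticulum by receptors such as ETR1, which in its absence keep the kinase CTR1 active. CTR1 phosphorylates the membrane protein EIN2 and holds it there. When ethylene binds, the carboxyl-terminal part of EIN2, EIN2C, is released and reaches the nucleus, where the transcription factors EIN3 and EIL1 drive the response, and EBF1 and EBF2 are the F-box proteins that target EIN3 for degradation. By its name, the fusion joins EIN2C to the DNA binding domain of EIN3. Col-0 keeps its own EIN2, EIN3 and EIL1, so the antibody can also bind resident EIN2. The sources used here do not give the promoter that drives the fusion or the number of transgenic lines.

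Some labels of these libraries go against their titles. Both the ChIP and the input that are titled air in Col-0 list ethylene as the agent, and the Col-0 ethylene input has the double mutant as its genotype label. The header of the ethylene peak list names an output folder with the code of the air library. Groups follow the titles throughout, and the 2 lists are named the air list and the ethylene list on that basis.

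Depth differed in the direction of the list lengths. The air library kept 3743192 tags after removal of duplicates and the ethylene library 4713282. Redundant tags made up 0.61 of the air library and 0.56 of the ethylene library, against 0.20 to 0.30 in the double mutant libraries. The inputs kept 5913365 and 8060320 tags. The part of depth, duplicates and input in the difference between the lists was not tested.

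Peaks with a high −log10 q were mostly found in both lists and peaks with a low one mostly in 1. In the air list 405 peaks were shared (48.2%, 95% exact Clopper-Pearson interval 44.7 to 51.6) and 436 were not. In the ethylene list 325 were shared (21.5%, interval 19.5 to 23.7) and 1185 were not. The intervals cover counting error only. The share was larger among peaks with a high −log10 q, the authors' score of a peak against its input. Among air peaks with a −log10 q of 10 or more, 53 of 54 were shared (98.1%), and among those under 1, 48 of 160 (30.0%). Among ethylene peaks of 10 or more, 103 of 121 were shared (85.1%), and among those under 1, 6 of 133 (4.51%). At a −log10 q between 5 and 10 the share was 86.8% of 76 air peaks but 42.8% of 187 ethylene peaks, so the ethylene list also held mid-range peaks that the air list did not.

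**Figure D1:**
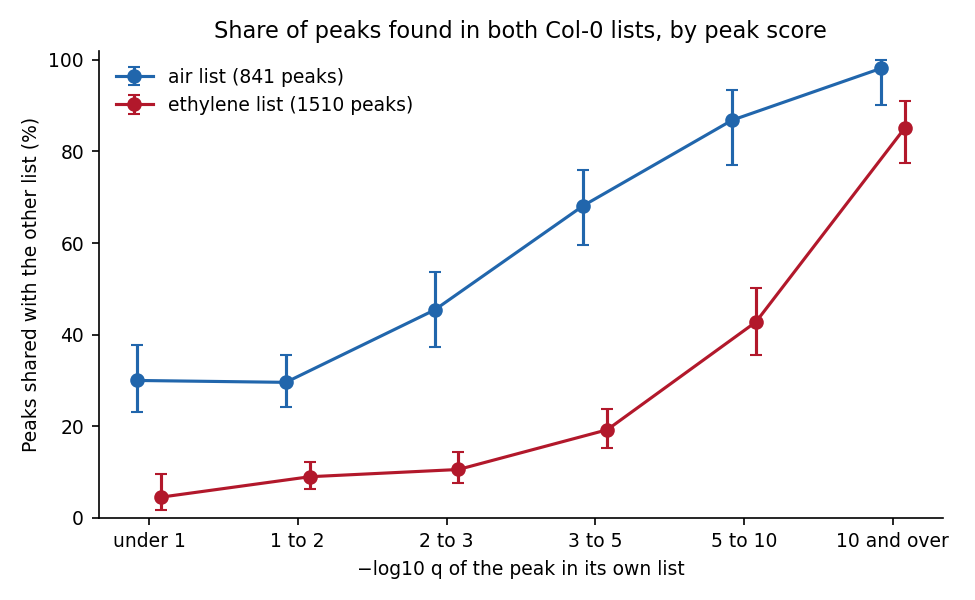
Share of peaks found in both Col-0 lists (vertical axis, percent) by the −log10 q of the peak in its own list (horizontal axis, 6 bins). Points are the share of 1 list and bars are 95% exact binomial intervals for counting error. The share is largest in the top bin of both lists, and the air list lies above the ethylene list in every bin. In the top bin 36 of 54 air peaks and 50 of 121 ethylene peaks lay where the input was high.

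Peaks that lay just on either side of the overlap rule show how narrow the line is. An air peak and an ethylene peak at PHOT1, a blue light receptor gene, met at 1 bp (chr3:16824410-16824543 and chr3:16824251-16824410), those at XYL4 at 2 bp and those at LHCA4 at 3 bp. Just outside, gaps of 9, 15 and 16 bp separated the peaks at APX1, COL5 and NIA1. Most single-treatment peaks were far from this line. Of 436 air-only peaks 76 lay within 1000 bp of an ethylene peak, with a median gap of 19801 bp over all of them, and of 1185 ethylene-only peaks 196 lay within 1000 bp of an air peak, with a median gap of 28154 bp.

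At some sites the ethylene peak was a long block over a gene and the air signal a few short pieces inside it. Of the 325 shared ethylene peaks, 275 held a single air peak and 50 held at least 2 air peaks, with a maximum of 7 in 1 peak. In the 260 pairs in which each peak had a single partner, the ethylene peak was wider in 146 and the air peak in 110, and the median widths were 194 and 156.5 bp. Their summits were a median of 36 bp apart, and 196 pairs had summits within 100 bp. These pairs were chosen by their overlap, so near summits follow in part from the rule, and no match in place is read from them. The long blocks were a minority.

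Peaks of at least 1000 bp numbered 75 in the ethylene list and 17 in the air list. The 17 air blocks were all shared, and of the 75 ethylene blocks 60 were shared and 15 were ethylene-only. A wide peak meets the 1 bp overlap rule more readily than a narrow one, and the part of width in these counts was not tested. An ethylene block covered a median of 76.2% of the gene it was placed at, and an air block 57.5%. Within each list the blocks had higher fold enrichment (the authors' ratio of ChIP to local input) than narrower peaks, with medians of 6.09 against 3.02 in the ethylene list and 5.47 against 3.12 in the air list. In the ethylene list the widest were CAT3, a catalase gene, with 4030 bp (chr1:7143201-7147230), BXL1, a beta-xylosidase gene, with 3763 bp (chr5:20012728-20016490), and PYK10, a beta-glucosidase gene of seedlings and roots, with 3385 bp (chr3:2840007-2843391). In the air list they were BT2, a BTB and TAZ domain gene, with 2632 bp (chr3:17907832-17910463), PYK10 with 2233 bp and the polyubiquitin gene UBQ10 with 2115 bp. UBQ10 is used as a reference gene in expression work, and its ethylene peak of 2306 bp had a fold of 8.14.

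**Figure D2:**
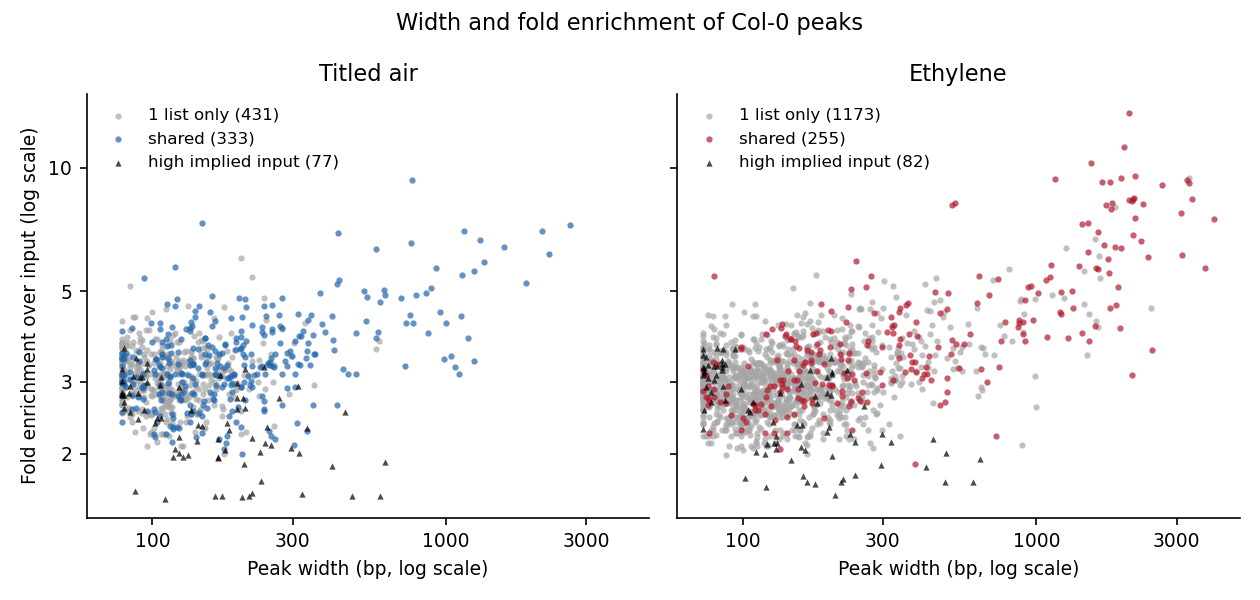
Width (horizontal axis, bp, log scale) and fold enrichment over input (vertical axis, log scale) of every peak in the air list and the ethylene list. Coloured points are shared peaks, grey points are peaks of 1 list only and black triangles are peaks with a high implied input. Peaks of 1000 bp and more (17 in air, 75 in ethylene) are mostly shared and have high folds in both lists. A wide peak meets the 1 bp overlap rule more readily, and the part of width was not tested.

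The largest fold of the ethylene list was at EXO, a gene that responds to brassinosteroids and promotes growth. Its ethylene peak of 2068 bp (chr4:5740032-5742099) spanned the whole gene with a fold of 13.6, and its air peak was 597 bp long with a fold of 4.69. A fold belongs to its own list, since each library was set against its own input, and no difference between the lists is read from the 2 values. The other 7 shared peaks with the highest ethylene folds were at AT5G01210 (11.2), AT5G25280 (10.3), IAGLU (9.55), AT2G20670 (9.47), CWLP (9.41), STP1 (9.34) and AT3G15450 (9.26). IAGLU encodes an enzyme that conjugates auxin to glucose and STP1 a sugar transporter. Each of these genes also had an air peak, with highest folds from 3.52 at AT5G01210 to 6.42 at AT5G25280, and at STP1 1 ethylene peak of 3255 bp covered 5 air peaks of 130 to 495 bp.

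Ranked by air values the shared peaks named other genes. The highest air fold was at AT4G35610, 9.36 over 767 bp (chr4:16899424-16900190), where the ethylene fold was 4.89. It was followed by the pseudogene AT4G06477 (7.33), BT2 (7.23), UBQ10 (7.02), GRP3S (7.0), RBCS1A (6.95), RAP2.4 (6.67) and NIA2 (6.56). RBCS1A encodes a small subunit of Rubisco, RAP2.4 an AP2/ERF domain transcription factor and NIA2 a nitrate reductase. Of these genes BT2, UBQ10, GRP3S and RAP2.4 were overlapped by a peak in all 4 double mutant lists, and AT4G35610 and RBCS1A by none.

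Among ethylene-only peaks the highest fold was at THA1, a threonine aldolase gene. A peak of 3296 bp (chr1:2744231-2747526) had a fold of 9.44 and a −log10 q of 25.7, and no air peak was placed at the gene. It was followed by AT2G39980 (8.03), AT5G62280 (6.71), AT5G44260 (6.39), CA2 (6.09), AT1G06760 (5.66), ACO4 (5.58) and a peak with no gene within 1000 bp (chr3:3122063-3122239, 5.47). CA2 encodes a carbonic anhydrase, and ACO4 an enzyme of the last step of ethylene synthesis. CA2 had 4 ethylene peaks, and another of them overlapped an air peak of 101 bp with a fold of 3.21. Of the 18 ethylene-only peaks with a −log10 q of 10 or more, 11 had an ordinary implied input and 7 a high one.

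Air-only peaks had a median width of 110 bp, and the widest was 589 bp, against 130 bp and 3296 bp for ethylene-only peaks. The median fold was 3.11 in the air-only peaks and 3.01 in the ethylene-only peaks. The highest air-only fold was 6.03 at HAG3, which encodes the acetyltransferase subunit of the Elongator complex, and HAG3 also had a shared peak. The others were LHCA4 (5.42), CAB2 (5.14), RCA (4.81), FLS1 (4.59), DJ1A (4.56), AT2G22730 (4.53) and AT4G35295 (4.44). LHCA4 and CAB2 encode light-harvesting proteins, RCA the Rubisco activase and FLS1 a flavonol synthase. LHCA4 and DJ1A also had ethylene peaks. Only 11 of 436 air-only peaks had a −log10 q of 5 or more, against 125 of 1185 ethylene-only peaks.

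Peaks were placed at the gene nearest their summit, in it or within 1000 bp of it. Of 27444 protein-coding nuclear genes, 868 (3.16%) were placed at an ethylene peak, 540 (1.97%) at an air peak and 248 (0.904%) at both, which left 620 with ethylene peaks alone and 292 with air peaks alone. Of the 292, 9 had an air peak that did overlap an ethylene peak placed at a neighbouring gene, as did 3 of the 620. Most summits lay inside an annotated gene, 642 of 841 in the air list (76.3%) and 1026 of 1510 in the ethylene list (67.9%). Another 145 and 356 lay within 1000 bp, and 54 and 128 peaks had no gene that close.

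Genes of ethylene perception and signalling were at peaks in both lists. This gene list and those that follow were chosen with earlier results of these data known, so their shares are descriptive only. Of 18 genes 6 were placed at an ethylene peak (33.3%, against 3.16% of all protein-coding genes) and 5 at an air peak (27.8%, against 1.97%). Both counts include EIN2 and EIN3, where reads from the transgene cannot be told from those of the resident genes. Of the receptor genes, ETR1 was at an air peak of 205 bp with a fold of 3.12 and at no ethylene peak, and ETR2, ERS1, ERS2 and EIN4 were at none. CTR1 was placed at a single ethylene peak of 73 bp outside the gene with a fold of 3.01, and EIL1 at one of 100 bp, also outside the gene, with a fold of 2.33.

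EBF1 and EBF2 each had a long ethylene peak and several short air peaks. At EBF2 the ethylene list had a peak of 3096 bp with a fold of 7.74 and a second of 299 bp, and the air list had 3 peaks of 79 to 148 bp with folds of 2.71 to 3.27. Ethylene peaks covered 83.5% of EBF2 and air peaks 11.4%. At EBF1 the longest ethylene peak was 3131 bp with a fold of 6.11, and the air list had 5 peaks of 79 to 187 bp with folds of 2.54 to 4.19. The EBF2 block overlapped a peak in each of the 4 double mutant lists, and that of EBF1 in none.

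EIN2 and EIN3 themselves were at peaks in every list. At EIN2 the longest ethylene peak was 1012 bp (chr5:791067-792078) with a fold of 4.93 and the longest air peak 723 bp (chr5:791500-792222) with a fold of 3.27. At EIN3 the ethylene peak was 233 bp (chr3:7261818-7262050) with a fold of 5.06, and it overlapped an air peak of 346 bp with a fold of 4.38. Both regions overlapped a peak in each of the 4 double mutant lists. The fusion carries coding sequence of both genes, so reads from the transgene and from the resident genes cannot be told apart.

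Of 23 genes known as EIN3 targets or as ethylene-induced, 10 were placed at an ethylene peak (43.5%, against 3.16% of all protein-coding genes), 6 at an air peak (26.1%, against 1.97%) and 6 at both. The ethylene count exceeded the air count by about the same ratio over all genes, with 868 against 540. These 23 genes too were chosen with earlier results of these data known. The 6 at both were EBF2, EDF1, EDF2, ERF5, HLS1 and RAV1, and the 4 with ethylene peaks alone were ARGOS, ARL, EDF3 and PORB. The 10 genes had 22 ethylene peaks with a median width of 282.5 bp, and the 6 genes had 8 air peaks with a median width of 138.5 bp. In the list of 841 ethylene peaks with the highest −log10 p, an alternative chosen after seeing the data, 10 of the 23 genes were still found. With both lists kept at a −log10 q of at least 2, likewise chosen after seeing the data, they were 10 and 2, and over all genes 579 and 237.

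After EBF2, the highest ethylene fold of these genes was at EDF1. EDF1, an AP2 and B3 domain transcription factor gene of the ethylene response, had an ethylene peak of 1428 bp with a fold of 7.28 and an air peak of 305 bp with a fold of 2.91. HLS1, which is needed for the apical hook of dark-grown seedlings, had 6 ethylene peaks of 104 to 332 bp and 1 air peak of 129 bp. In both genes the called region was longer in the ethylene list.

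The EIN3 target genes with ethylene peaks alone included organ size genes and a chlorophyll synthesis gene. ARGOS, a regulator of organ size, had a longest peak of 887 bp with a fold of 4.77, and its relative ARL one of 1450 bp with a fold of 4.64. PORB, a protochlorophyllide oxidoreductase of greening seedlings, had peaks of 628 and 1244 bp with folds of 4.55 and 4.81. EDF3 had 1 peak of 217 bp with a fold of 2.92. At EDF2 and ERF5, which were at peaks in both lists, the folds were 3.87 and 2.67 in the ethylene list and 4.15 and 3.68 in the air list.

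**Figure D3:**
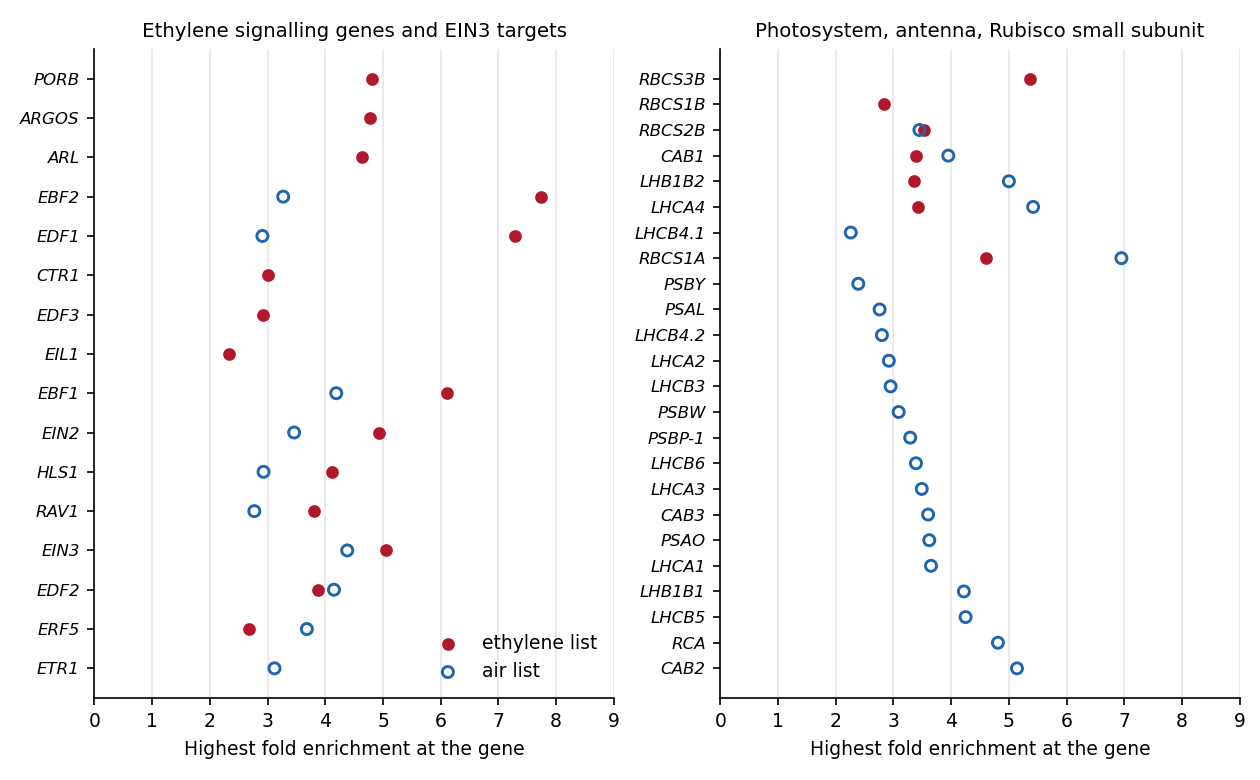
Highest fold enrichment over input (horizontal axis) at each gene of the ethylene signalling and EIN3 target lists (left) and of the photosystem, antenna and Rubisco list (right) that was placed at a peak. Filled red points are the ethylene list and open blue points the air list, and a missing point means that no peak was placed at the gene; folds rank genes within 1 list, and the right panel holds 17 genes with an air point alone.

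Among other ethylene and hormone genes more were at an ethylene peak than at an air peak. Over all protein-coding genes this was also so, with 3.16% against 1.97%. The lists hold 14 to 18 genes each, and no excess is read from them. Of 16 ethylene biosynthesis genes ACO4 and ACS8 were at an ethylene peak and none was at an air peak. ACO4 had 1456 bp called with a fold of 5.58, and ACS8, a synthase of the ethylene precursor, 286 bp with a fold of 4.43 outside the gene. Of 14 ERF transcription factor genes 4 were at an ethylene peak (ERF-1, ERF4, ERF5 and ERF104) and 2 at an air peak (ERF5 and RAP2.12), with folds of 2.67 to 4.29 and 3.08 to 3.68. Of 18 auxin genes 6 were at an ethylene peak and 4 at an air peak. The auxin efflux carrier genes PIN3 and PIN7 and the response gene IAA2 were at both, ARF2, AUX1 and TIR1 at ethylene peaks alone and IAA3 at an air peak alone.

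In the lists of other pathways most genes were at no peak. These lists hold 4 to 14 genes, so 1 gene at a peak already puts a share above the 3.16% and 1.97% of all protein-coding genes. No excess is read from them. Of 12 light regulators 3 were at an ethylene peak (CRY1, HFR1 and PHYA) and 2 at an air peak (CRY1 and PIF5), and none of their peaks was shared. Of 7 cold genes COR47 was at both and CBF1 at an air peak. Of 10 clock genes LUX alone was at a peak, in the ethylene list. Of 14 histone acetylation genes HAG3 was at both and HAC1 at an ethylene peak of 100 bp with a fold of 2.46. Of 4 reference genes UBQ10 was at both, and ACT2, PP2AA3 and EF1A at none.

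Photosystem, antenna and Rubisco genes stood the other way round, with more genes in the shorter list. The gene lists above were chosen with earlier results of these data known. The photosystem list and the next 5 families were drawn up from gene names after the peaks had been seen, so their counts describe these lists and support nothing further. Of 53 such genes 22 were placed at an air peak (41.5%, against 1.97% of all protein-coding genes). At an ethylene peak were 7 (13.2%, against 3.16%). CAB1, LHB1B2, LHCA4, RBCS1A and RBCS2B were at both, and RBCS1B and RBCS3B at ethylene peaks alone. The 17 with air peaks alone were the antenna genes CAB2, CAB3, LHB1B1, LHCA1, LHCA2, LHCA3, LHCB3, LHCB4.1, LHCB4.2, LHCB5 and LHCB6, the photosystem genes PSAL, PSAO, PSBP-1, PSBW and PSBY, and RCA. The air peak at PSBY did overlap an ethylene peak that was placed at a neighbouring gene.

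The air peaks at these genes had a higher median fold than the air list as a whole. The 31 air peaks had folds of 2.26 to 6.95 with a median of 3.60, against a median of 3.12 for all air peaks, and 30 had their summit inside the gene. Of the 31, 8 were shared. At RBCS1A the highest air fold was 6.95 and the highest ethylene fold 4.61, at LHCA4 5.42 and 3.43, at LHB1B2 5.0 and 3.35, at CAB1 3.95 and 3.39, and at RBCS2B 3.45 and 3.53. None of these peaks had a high implied input. With both lists kept at a −log10 q of at least 2 the counts were 14 and 6 genes, and the 841 ethylene peaks with the highest −log10 p held 6. CAB1, CAB2 and CAB3, LHB1B1 and LHB1B2, and the RBCS genes are related copies, so reads may be split or misplaced among them. How alike their sequences are was not examined.

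**Figure D4:**
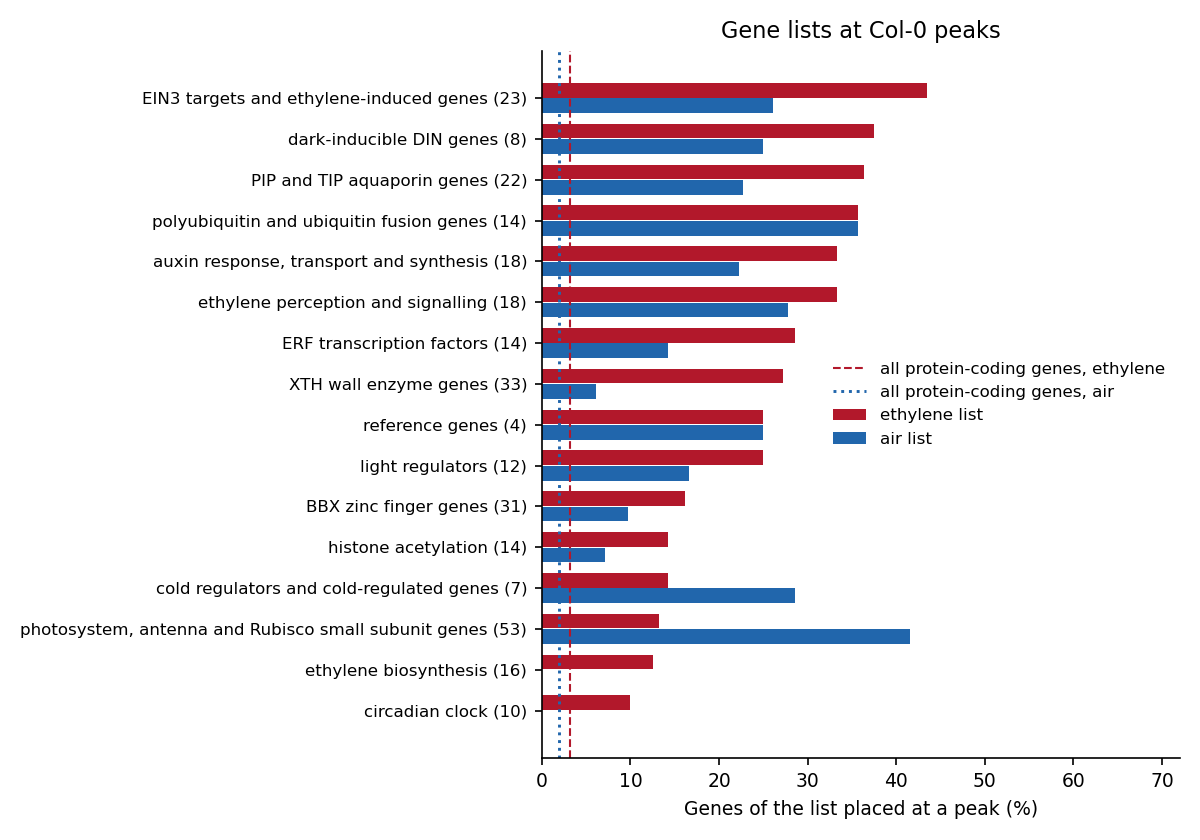
Share of the genes of each list that was placed at a peak (horizontal axis, percent; number of genes in brackets) in the ethylene list (red bars) and the air list (blue bars). Vertical lines give the share of all protein-coding genes, 3.16% for ethylene and 1.97% for air; the photosystem and antenna list and the cold list have a longer air bar than ethylene bar.

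The other families, here and in the next paragraph, differed in balance. Over all protein-coding genes 3.16% were at an ethylene peak and 1.97% at an air peak. Of 33 XTH genes, whose enzymes remodel cell wall xyloglucan, 9 were at an ethylene peak and 2 at an air peak, XTH30 and XTH15. The air peak at XTH15 overlapped an ethylene peak placed at a neighbouring gene. XTH31 had 4 ethylene peaks of 120 to 556 bp with folds of 2.75 to 4.01 and no air peak. Of 22 plasma membrane and tonoplast aquaporin genes 8 were at an ethylene peak and 5 at an air peak, and those 5 were all at both. The tonoplast gene TIP2 was covered almost alike, by 1812 bp with a fold of 8.20 in the ethylene list and 1865 bp with a fold of 5.23 in the air list.

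Polyubiquitin and ubiquitin fusion genes were the same in both lists, with UBQ3, UBQ4, UBQ10, UBQ11 and UBQ14 of 14 genes. This was 35.7% in each list, against 3.16% (ethylene) and 1.97% (air) of all protein-coding genes. Of 8 DIN genes, induced by darkness and sugar starvation, ASN1 and DIN10 were at both and SEN1 at ethylene peaks alone, of which at least 1 overlapped an air peak placed at a neighbouring gene. ASN1, an asparagine synthetase gene, had an ethylene peak of 3310 bp with a fold of 9.18 and 5 air peaks of 79 to 277 bp with folds of 2.98 to 4.47. Of 31 BBX zinc finger genes 5 were at an ethylene peak and 3 at an air peak, with BBX21, BBX28 and COL5 at both. Long ethylene blocks with short air pieces thus also occurred outside the ethylene lists.

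A separate group of peaks lay where the input itself was high. The input under each peak was derived from its pileup and fold, and 3 times the list median was taken as high. Of the shared peaks 72 of 405 in the air list and 70 of 325 in the ethylene list were of this kind, against 5 of 436 air-only and 12 of 1185 ethylene-only peaks. Their fold was low, with a median of 2.38 in the shared air peaks and 2.46 in the shared ethylene peaks, while their −log10 q had medians of 9.94 and 12.4. All peaks at the highest pileup that 1 tag per position allows were in this group, 9 at 158 tags in the air list with folds of 1.57 to 2.07 and 7 at 146 tags in the ethylene list with folds of 1.70 to 2.23. Only 21 of 77 such air peaks and 23 of 82 such ethylene peaks were placed at a protein-coding gene, and 4 in each list at a ribosomal RNA gene. Without them 333 of 764 air peaks (43.6%) and 255 of 1428 ethylene peaks (17.7%) were shared.

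Peaks shared by the Col-0 lists overlapped double mutant peaks in a larger share than single-treatment peaks did. Leaving high-input peaks out, 80 of 333 shared air peaks (24.0%) overlapped a peak of at least 1 mutant air list, and 8 of 431 air-only peaks did (1.86%). Of the ethylene peaks, 31 of 255 shared peaks (12.2%) overlapped a peak of at least 1 mutant ethylene list, against 4 of 1173 ethylene-only peaks (0.341%). Overlap with the mutant air lists was 67 of 255 (26.3%) and 23 of 1173 (1.96%). The mutant lists held 245 to 275 peaks each, so most Col-0 peaks could have no partner there. The classes also differed in width. Shared peaks without high input had a median of 175 bp in the air list and 297 bp in the ethylene list. Single-treatment peaks had medians of 110 and 130 bp. The part of width in these overlaps was not tested. Of the 75 ethylene blocks 37 overlapped a mutant air peak and 21 a mutant ethylene peak, and of the 17 air blocks 16 and 12. The long blocks of BT2, UBQ10, PYK10 and RAP2.4 overlapped a peak by at least 1 bp in all 4 mutant lists, and those of EXO, EDF1, ASN1, STP1 and THA1 in none.

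RNA of the fusion line was available only in ein3-1 eil1-1 in air, set against Col by the authors, while the peaks come from Col-0. The authors' deposited table holds genes that differ by a fold of 2 or more with q-values below 0.05, and by its name a level of at least 1, and 2724 of 27444 protein-coding genes (9.93%) are in it as higher and 2662 (9.7%) as lower than Col. Among the 248 genes with peaks in both lists, the authors' deposited table has 12.1% as higher and 23.8% as lower. For the 620 genes with ethylene peaks alone it has 7.58% as higher and 23.4% as lower (exact intervals 5.62 to 9.95 and 20.1 to 26.9). For the 292 genes with air peaks alone it has 13.7% as higher and 15.1% as lower (9.97 to 18.2 and 11.2 to 19.7). The line lacks EIN3 and EIL1 and carries the fusion, and what each contributes cannot be told apart.

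**Figure D5:**
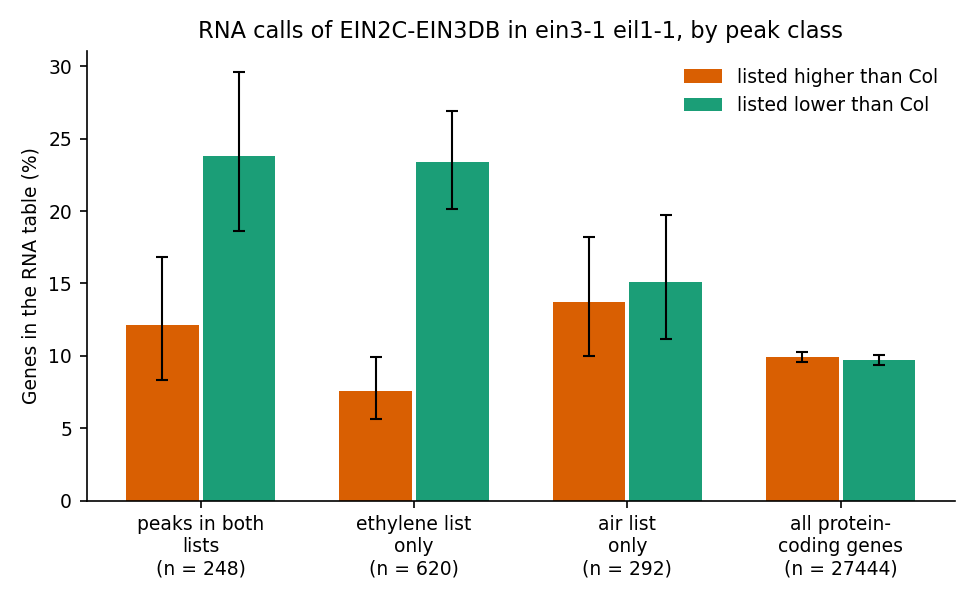
Share of genes that the authors' deposited table of EIN2C-EIN3DB in ein3-1 eil1-1 lists as higher (orange) or lower (green) than Col (vertical axis, percent), for genes with peaks in both Col-0 lists, in 1 list alone, and for all protein-coding genes. Bars on the columns are 95% exact binomial intervals for counting error; the lower share is 23.8%, 23.4% and 15.1% in the 3 peak classes and 9.7% over all genes.

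Of the 10 EIN3 target genes at ethylene peaks, the authors' deposited table has 8 as lower and none as higher, with log2 values of −4.64 at ARL, −3.56 at ARGOS, −3.30 at EBF2, −3.29 at PORB, −2.99 at EDF3 and −2.88 at HLS1. Of the 13 such genes without a peak it has 6 as lower and 1 as higher. Over all protein-coding genes it has 9.7% as lower and 9.93% as higher. Over the 868 genes at ethylene peaks it has 23.5% as lower and 8.87% as higher. Of the 17 photosystem and antenna genes with air peaks alone, the authors' deposited table has 7 as higher and none as lower, led by LHB1B1 (log2 9.59), CAB2 (5.66) and CAB3 (4.75). These 3 are among the related copies named above, so their reads may be split or misplaced. The Rubisco genes RBCS1B and RBCS3B, at ethylene peaks alone, are in the authors' deposited table as lower (−2.16 and −1.57). RBCS genes too are among the copies named above. Of the 5 genes of this list with peaks in both lists, the table has 3 as higher and 1 as lower. Those higher are LHB1B2 (5.97), CAB1 (2.76) and LHCA4 (1.85), and RBCS2B is lower (−1.24). Of the 29 genes of this list without a peak it has 3 as higher and 3 as lower. For EIN2C-EIN3DBK245N, 11 of the 17 genes with air peaks alone and 5 of the 29 without a peak are listed as higher. For EIN2S645A these counts are 15 of 17 and 17 of 29, so a higher value was not particular to genes with air peaks.

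In the tables of the other lines too, likewise in ein3-1 eil1-1 in air, the share of lower genes was smallest for genes with air peaks alone, but the 3 tables use the same Col and are not independent. For EIN2C-EIN3DBK245N, whose name gives a substitution in the fusion, the authors' deposited table has 14.1% of genes at both, 16.1% of genes at ethylene peaks alone and 7.19% of genes at air peaks alone as lower, against 6.33% of all. For EIN2S645A the authors' deposited table has 22.6%, 26.3% and 17.1%, against 13.9% of all. Listed as higher were 15.3%, 7.10% and 12.7% for K245N against 6.41% of all, and 21.4%, 17.9% and 21.2% for S645A against 11.8% of all, in the authors' deposited tables.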

How the data were processed

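Peaks were called by the authors for each ChIP library against its own input with MACS2 2.1.0.20150603 (p threshold 0.001, genome size 119000000 bp), keeping 1 tag per position, per the file headers. The deposited lists hold 4 measures of each peak, per the file headers: its pileup signal, its fold enrichment as a ratio over local input, and the −log10 of its p and of its q. According to comment lines in them no q was calculated, yet the column is filled, and it was read by its name. Fragment length was 79 bp (air) and 73 bp (ethylene) against a tag size of 75 bp, so widths and summits are approximate. RNA tables hold the authors' log2 fold and q-value (Cuffdiff 2.2.1, TAIR10, per the submitters' processing notes); the deposited p-values were not used, and 6 FPKM value columns of the authors were left out because they pool samples or match none. The K245N folds were turned to line over Col. The sources used here do not say what BWA was used for.

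Overlaps and counts were computed with Python 3.11.15, pandas 2.3.3 and numpy 2.4.6, intervals with SciPy 1.17.1, and the overlap and placement steps were tested on simulated intervals. To derive the implied input, 1 was added to the pileup, the sum was divided by the fold and 1 was taken off. Gene names and neighbours came from a TAIR10.1 table without strand or exons, of which no coordinate is printed; printed coordinates are those of the peak lists (TAIR10), 1-based. Of the RNA tables' gene identifiers 98.9% were in that table. A peak was placed at the gene nearest its summit, protein-coding genes first. No test was run, since each treatment had 1 library. Motifs were not searched, since no sequence was at hand. An item of the gene lists is not reported here.

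Members and lists were chosen with earlier results of these data known. Named genes are those at the 8 highest folds of each class, at the 3 widest peaks of each list, of the gene lists, and at the 3 peaks on either side of the overlap rule. Genes at the other ethylene-only peaks and the 6 families after the reference genes were chosen after values were seen. Alternatives were other overlap rules, peak thresholds, list lengths, gene windows, fold limits and treatments of high input.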

Additional observations from a re-analysis of the deposited data

How the results depend on the processing

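No paired analysis was possible because each Col-0 treatment had 1 library and no test was run. For the same reason no replicate could be left out. Of 118 alternative values computed, 65 stayed within the counting interval of the value reported (for counts, within 1.5 times) and 53 moved beyond it. Where a value moved, the cause was not tested, except that stricter thresholds leave fewer peaks by construction.

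The shared part of the air and ethylene lists was 26.4% and 14.7% with summits within 100 bp, 54.2% and 28.7% with peaks extended by 200 bp, 80.8% and 33.4% at a −log10 q of at least 5, 65.4% and 24.3% at a fold of at least 5, 42.0% and 32.3% with both lists at 841 peaks, and 43.6% and 17.7% without high-input peaks. At a −log10 q of at least 2 the air share was 62.6%. For thresholds, list lengths and high input, the overlap was drawn again between the peaks left in each list. By the overlap of the full lists, 119 of 130 air peaks with a −log10 q of at least 5 were shared, and 183 of 308 ethylene peaks. With at least 50% of the shorter peak covered, and with organelles left out (neither list has a peak there), the shares stayed within the interval.

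The medians that follow keep the peak classes of the full lists. At a −log10 q of at least 5, the median width, fold and −log10 p were 207 bp, 3.68 and 13.7 for shared air peaks. For shared ethylene peaks they were 366 bp, 3.99 and 14.9. For ethylene-only peaks they were 252 bp, 4.12 and 9.71, and for the 11 air-only peaks the fold was 3.66 and the −log10 p 11.3. With every gene within 1000 bp counted, 1323 genes were at an ethylene peak, 851 at an air peak and 397 at both. The alternatives on genes with list lengths, −log10 q of at least 2 and high input were chosen after seeing the data. With the ethylene list at 841 peaks 488 genes were at an ethylene peak, fewer than the 540 at an air peak. At a −log10 q of at least 2, 237 genes were at an air peak and 140 at both, with 2 EIN3 target genes and 14 photosystem genes in the air list.

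At an RNA fold of at least 4 the authors' deposited table has 3.23%, 1.45% and 5.48% of genes at both, at ethylene peaks alone and at air peaks alone as higher, and 6.05%, 6.94% and 1.71% as lower. With both lists first cut to a −log10 q of at least 5, gene classes were drawn again, so weaker peaks in the other list no longer counted. Of 12 genes then with air peaks alone, 41.7% were higher and 8.33% lower. With ethylene peaks alone the share lower was 32.5%. Of the 292 genes with air peaks alone in the full lists, only 3 had an air peak of that score. With the ethylene list at 841 peaks, 5.41% of genes with ethylene peaks alone were higher.

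Overlap with both mutant air replicates was 18.02% of shared air, 0.229% of air-only, 20.9% of shared ethylene and 0.506% of ethylene-only peaks, and with both mutant ethylene replicates 18.02% of shared air and 22.8% of shared ethylene peaks. Without high-input peaks, overlap with either mutant air replicate was 24.0% of shared air and 26.3% of shared ethylene peaks, and with either mutant ethylene replicate 9.61%, 12.2% and, for ethylene-only peaks, 0.341%.

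Precision is limited by 1 library per treatment, redundant shares of 0.61 and 0.56, and fragments about as long as the tags, which make peak limits approximate. A peak missing from a list was not called at that depth, which does not show that the site was unbound. Motifs were not searched.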

Other observations

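Single-treatment peaks and single-treatment genes were different sets. Of 357 protein-coding genes at air-only peaks, 74 also had an ethylene peak placed at them, and of 742 genes at ethylene-only peaks 124 also had an air peak. In those genes both libraries had a peak, but not all of them over the same stretch. CRY1, UBQ14, XTH30 and COL5 had peaks in both lists that did not overlap.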
